A study of Mus with 9 samples.

Results

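The 66 genes described here encode enzymes that attach a small polar group to drugs, hormones and reactive metabolites, together with some oxidising enzymes that act beside them. They were picked by name from the protein-coding genes of the deposited table, as every UDP-glycosyltransferase of the Ugt2, Ugt3 and Ugt8 families, every glutathione S-transferase of the Gsta, Gstk, Gstm, Gsto, Gstp, Gstt and Gstz families, every sulfotransferase (Sult), the 6 flavin-containing monooxygenases (Fmo) and the alcohol dehydrogenases Adh1, Adh4, Adh5 and Adh7. The Ugt1a and cytochrome P450 genes were not included. The table holds 54532 genes, of which 22046 are protein-coding. RNA was sequenced in 9 libraries from the kidneys of male C57BL/6 mice, and all of them had 1 kidney removed at 18 months of age. The 18 mo group (n = 3) was killed 1 week after that operation. The 21 mo group (n = 3) received saline intraperitoneally every day for 12 weeks. The 21 mo/O304 group (n = 3) received O304, a small-molecule activator of the energy-sensing kinase AMPK, at 10 mg/kg per day by the same route for 12 weeks. Age, the time since surgery and the injections all set the 18 mo group apart from the rest and cannot be told apart. The titles number the libraries within a group without naming the animals, so each library is taken as 1 mouse here, and the p-values measure only the spread between these libraries, which may be technical.

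Conjugation makes fat-soluble compounds polar enough to leave in urine or bile. UDP-glycosyltransferases of the endoplasmic reticulum transfer a sugar, most often glucuronic acid, from its UDP carrier, sulfotransferases transfer sulfate from the donor PAPS, and glutathione S-transferases couple the tripeptide glutathione to electrophiles such as the aldehydes formed by lipid peroxidation. Flavin-containing monooxygenases oxidise nitrogen and sulfur groups, and alcohol dehydrogenases oxidise ethanol, retinol and the glutathione adduct of formaldehyde. In the kidney these enzymes are best known from the proximal tubule, the segment that takes up and secretes organic anions.

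The libraries held between 15636378 and 18396725 counts on genes. The 21 mo libraries were less alike than those of the other groups, with a biological coefficient of variation of 44.0% against 18.0% in 18 mo and 20.6% in 21 mo/O304. They also differed in their proximal tubule RNA. The 13 markers of this segment, all of them detected in every library, summed to 35005, 43375 and 35436 CPM (counts scaled to the size of the library) in the 18 mo libraries, 34206, 9971 and 1989 CPM in the 21 mo libraries and 40421, 41693 and 47261 CPM in the 21 mo/O304 libraries, in the order of replicates 1 to 3. The 21 mo replicate 3 library thus stood apart, and replicate 2 stood between it and the rest. Kap alone made up 20894, 24573 and 17968 CPM of the 18 mo sums and 18931, 2627 and 175 CPM of the 21 mo sums. The markers fell unequally, with Hnf4a at 1045, 654 and 278 CPM and Slc7a13 at 1020, 246 and 5.08 CPM in 21 mo. The 6 markers of injured tubules ran the other way, at 179, 1289 and 2144 CPM in the 21 mo libraries against 169 to 172 CPM in 18 mo and 134 to 188 CPM in 21 mo/O304. The sums of the 8 fibroblast markers (164 to 1513 CPM) and of the 6 macrophage markers (371 to 1154 CPM) in the 21 mo group were also highest in replicate 3. In 21 mo/O304, the 7 adipocyte markers summed to 149, 10.2 and 123 CPM, against at most 8.94 CPM in any 18 mo or 21 mo library. The 8 hepatocyte markers summed to between 251 and 2559 CPM, while 1 of the 6 adrenal cortex markers, Cyp11b2, was at 0 in every library and the list summed to at most 5.31 CPM. In whole-kidney RNA, fewer cells of a type and less RNA per cell cannot be told apart. The part of these cell markers in the results on the enzymes was not tested.

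Of the 66 genes, 44 had enough counts to be tested. These were 8 of 13 UDP-glycosyltransferases, 8 of 21 sulfotransferases, 20 of 22 glutathione S-transferases, 5 of 6 monooxygenases and 3 of 4 alcohol dehydrogenases. A count of 0 in all 9 libraries was found for 12 genes, namely Fmo6, Sult1c1, Sult2a1, Sult2a2, Sult2a5, Sult2a6, Sult2a7, Sult3a1, Sult3a2, Ugt2a1, Ugt2a2 and Ugt2b1. The other 10 genes that were not tested reached at most 14 counts in a library (Sult6b1), with at most 7 for Sult1e1, the oestrogen sulfotransferase, and at most 5 for Adh4 and Gstm3. Gstt4, Sult2a4, Sult2a8, Sult6b2, Ugt2b35 and Ugt2b36 did not exceed 3 counts in any library. Counts this low limit what can be said to the sequencing depth reached here. Most of the genes lie in tandem. Within 500000 bases of a neighbour, 55 of the 66 fall into 12 groups of related genes, and the longest lists are 13 genes on chromosome 5 between 86889767 and 87591594 (Ugt2a, Ugt2b and Sult1 genes), 8 Sult2a genes on chromosome 7 between 13623967 and 14494230 and 7 Gstm genes on chromosome 3 between 107895821 and 108044894. Coordinates are those of the authors' table, on GRCm38/mm10 per the submitters' processing notes. Near-identical neighbours such as Gstp1 and Gstp2, Gsta1 and Gsta2 or the Gstm and Ugt2b genes can share reads, and the treatment of reads with several matches is not given in the sources used here, so values for single copies are uncertain.

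Compared per gene length, in the deposited values scaled for gene length and library size (FPKM), the levels spread over a wide range. The highest mean over the 9 libraries was that of Ugt3a2 at 383 FPKM, followed by Sult1d1 at 309 FPKM, Ugt2b38 at 301 FPKM and Gstm1 at 268 FPKM. Adh1 averaged 169.6 FPKM, Gstp1 169.9 FPKM and Gsta2 139.7 FPKM. These 7 genes were the ones above 100 FPKM, 25 genes averaged at least 10 FPKM, and 7 tested genes averaged less than 1 FPKM. Within the sulfotransferases 1 gene made up most of the level. Sult1d1, which acts on catecholamines and phenols in rodents, was 78.8 ± 2.46% of the summed sulfotransferase FPKM in 18 mo (SD, n = 3). Adh1, the ethanol and retinol dehydrogenase, was 82.4 ± 1.43% of the alcohol dehydrogenase FPKM in the same group. The monooxygenases were led by Fmo1 with 40.8 ± 1.58% and Fmo2 with 39.9 ± 0.538%. Glutathione S-transferases were more evenly divided, with 22.4 ± 4.65% for Gstm1 and 19.9 ± 2.71% for Gstp1.

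The enzyme classes differed in how their summed level ran across the libraries. The UDP-glycosyltransferases summed to 741, 1078 and 804 FPKM in 18 mo, 844, 394 and 105 FPKM in 21 mo and 1048, 1229 and 1367 FPKM in 21 mo/O304. The order of the 21 mo libraries was the order of their proximal tubule markers. The monooxygenases showed the same order, with 154, 204 and 183 FPKM in 18 mo, 204, 128 and 49.0 FPKM in 21 mo and 229.6, 222 and 223 FPKM in 21 mo/O304. The alcohol dehydrogenases summed to 199, 250.1 and 222 FPKM, 165, 171 and 87.0 FPKM and 215, 221 and 312 FPKM in the 3 groups, and here no 21 mo library reached the lowest 18 mo library. Glutathione S-transferases had the same order within 21 mo as the proximal tubule markers, but in FPKM their sums were not lower there. They were 880.0, 944 and 842 FPKM in 18 mo, 1311, 1062 and 965 FPKM in 21 mo and 1198, 928 and 1073 FPKM in 21 mo/O304. In FPKM, each 21 mo library was above each 18 mo library, including replicate 3. Summed in CPM, the same enzymes stood at 1632, 1711 and 1540 in 18 mo and 2237, 1716 and 1560 in 21 mo, and those groups overlapped. The sulfotransferase sum followed Sult1d1 and was highest in the first replicates of 21 mo and 21 mo/O304.

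**Figure D1:**
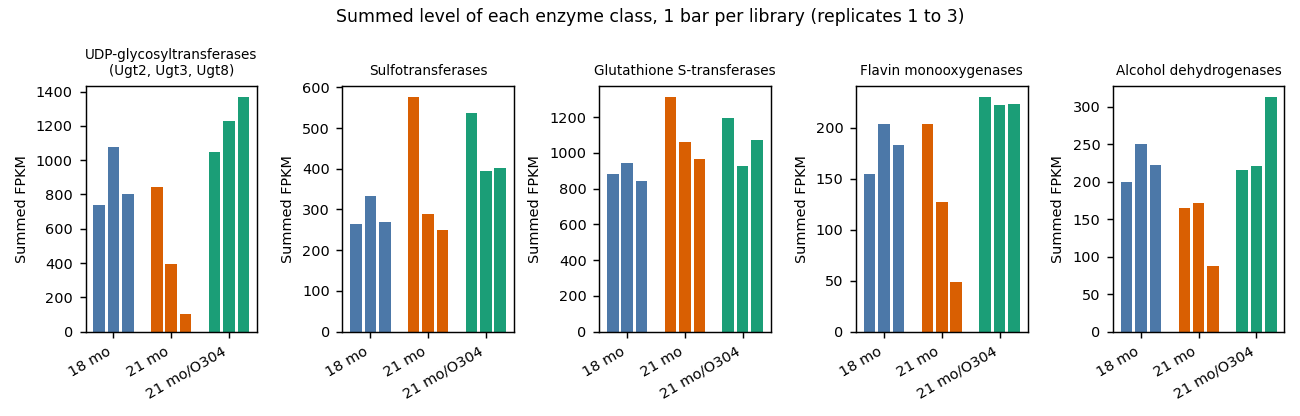
Summed FPKM of each enzyme class, with 1 bar per library and the bars of a group in the order of replicates 1 to 3 (y axis: summed FPKM, starting at 0). The UDP-glycosyltransferase bars of the 21 mo group step from 844 to 105 FPKM, while all 3 glutathione S-transferase bars of that group stand above those of 18 mo. Summed in CPM, the glutathione S-transferases of those groups overlapped.

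The first comparison, 21 mo against 18 mo, asks how these enzymes stood after 3 further months of life following the operation. The glutathione S-transferases Gsta2, Gsta4 and Gsta1 of the alpha family and Gsto1 of the omega family were above the 18 mo range in each of the 3 older mice, while Gsta3 and Gsto2 had log2 fold changes of -0.13 and -1.25, and the brain-type sulfotransferase Sult4a1 was higher in 2 of 3. UDP-glycosyltransferases, monooxygenases and alcohol dehydrogenases were mostly lower, led by Ugt2b38, Fmo5 and Adh1. None of these differences passed an adjusted p of 0.05 in edgeR's quasi-likelihood test, where 0 of the 44 genes were called against 0.0189% of all 15902 genes tested. The smallest adjusted p was 0.0626, for Gsta2. At an unadjusted p under 0.05 there were 8 genes higher, where all genes give 14%, and 8 lower, where all genes give 12%. The libraries of the groups did not overlap for 6 genes that were higher (13.5% of all genes) and 9 that were lower (15.3%), so these shares are near the background. Of the 44 genes, 28 had a log2 fold change below 0 (47.3% of all genes) and 16 above 0 (52.7%), with a median of -0.30 against 0.03 for all genes. In the absence of 21 mo replicate 3 it was below 0 for 27 of 44, with a median of -0.10.

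The calls turned on which 21 mo library was in the fit. When 21 mo replicate 1, the library with the most proximal tubule RNA of its group, was left out, 16 of 45 genes passed an adjusted p of 0.05 in edgeR's test. Of these, 7 were higher (13.6% of all genes tested) and 9 lower (11.9%). The higher ones were Gsta1, Gsta2, Gsta4, Gstm6, Gsto1, Gstp3 and Sult4a1, and the lower ones Adh5, Fmo5, Gstk1, Gstt2, Gstz1, Sult1c2, Ugt2b38, Ugt3a1 and Ugt3a2. Without 21 mo replicate 3 there were 2 genes higher (0.378% of all genes) and 0 lower (0.428%), namely Gsta2 (log2 fold change 1.49 ± 0.25, adjusted p = 0.0481, edgeR) and Gsta4 (1.18 ± 0.21, adjusted p = 0.0483, edgeR). DESeq2 on all libraries called 8 genes, with Gsta1, Gsta2, Gsta4, Gstm6, Gsto1, Gstp3 and Sult4a1 higher (4.04% of all genes) and Ugt2b38 lower (3.15%). Limma voom with sample quality weights called 24 of 44, with 9 higher (26.3% of all genes) and 15 lower (26.6%).

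The second comparison, 21 mo/O304 against 21 mo, asks whether the enzymes stood at other levels after 12 weeks of O304. Of the enzyme classes, UDP-glycosyltransferases had the highest median difference, with Ugt2b38, Ugt2b37, Ugt2b5, Ugt2a3 and Ugt3a2 higher in each treated mouse than in any 21 mo mouse. Fmo5, Fmo1, Adh1, Gstp2 and Sult2a3 were also higher without overlap, and Gsta4, Gsta1, Gsto1 and Sult2b1 lower without overlap. edgeR called 0 of the 44 genes and 0 of all 15902 (0%) at an adjusted p under 0.05. At an unadjusted p under 0.05 it gave 10 genes higher (8.27% of all genes) and 6 lower (12.4%). Libraries that did not overlap were counted for 10 genes that were higher (10.8% of all genes) and 4 that were lower (10.5%). Of the 44 genes, 30 had a log2 fold change above 0 (48.2% of all genes) and 14 below 0 (51.8%), with a median of 0.30 against -0.02. Without 21 mo replicate 3 it was above 0 for 27 of 44, with a median of 0.16.

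Here too, leaving out 21 mo replicate 1 moved the calls. In its absence edgeR called 22 of 45 genes, with 14 higher (10.6% of all genes) and 8 lower (12.6%). The 14 were Adh5, Fmo2, Fmo4, Fmo5, Gsta3, Gstk1, Gstp2, Gstt2, Gstz1, Sult1d1, Ugt2b37, Ugt2b38, Ugt3a1 and Ugt3a2, and the 8 were Gsta1, Gsta4, Gstm2, Gsto1, Gstp3, Sult2b1, Sult4a1 and Sult6b1. Sult6b1 is not among the 44 genes. It had 14 and 11 counts in 21 mo replicates 2 and 3 and at most 3 in any library of the other groups. It thus passed the filter only through the group where it was high, and no result is drawn from its call. Without 21 mo replicate 3 there were 0 genes higher (0%) and 0 lower (0.0062%). DESeq2 on all libraries called 7 genes, with Fmo5, Gstp2, Ugt2b37 and Ugt2b38 higher (0.948% of all genes) and Gsta4, Gsto1 and Sult4a1 lower (2.23%). Limma voom with sample quality weights called 27 of 44, with 19 higher (21.2% of all genes) and 8 lower (19.8%). Both comparisons use the same 21 mo libraries, so a library that is low in that group gives a lower value in the first and a higher value in the second. Values without 21 mo replicate 1 are given below for single genes. Of those genes, only Gsta4 also passed without replicate 3 in the first comparison, and none did in the second.

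**Figure D2:**
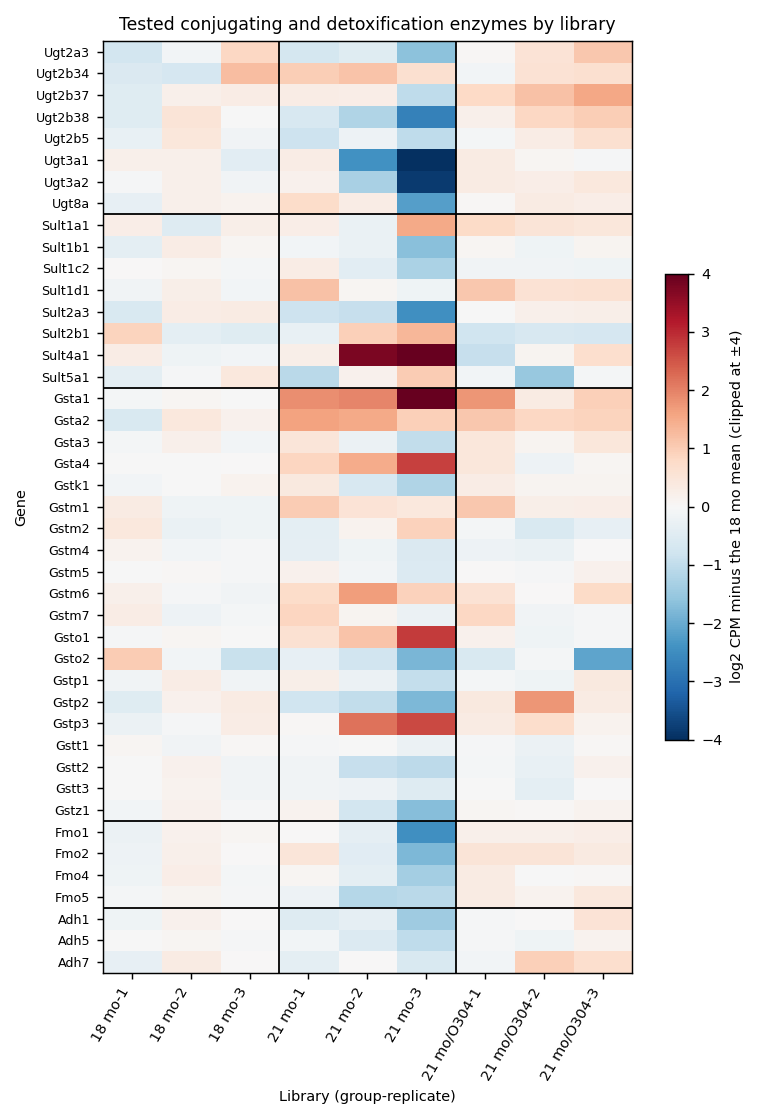
Tested genes (43 of the 44, in rows, in blocks from top to bottom for UDP-glycosyltransferases, sulfotransferases, glutathione S-transferases, monooxygenases and alcohol dehydrogenases) in the 9 libraries (columns), coloured by log2 CPM minus the mean of the 18 mo libraries and clipped at ±4. The third 21 mo column is the most coloured, with 31 of all 44 genes below and 12 above the 18 mo range, while the 21 mo/O304 columns hold 4 to 13 genes below it.

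Counted library by library, 17 tested genes were above and 13 below the range of the 18 mo libraries in 21 mo replicate 1, 10 above and 21 below in replicate 2, and 12 above and 31 below in replicate 3. Over all tested genes, 31.1%, 37.3% and 41.3% were above and 33.4%, 36.1% and 40.5% below that range in the same libraries. In 21 mo/O304 there were 20, 14 and 24 genes above the range and 4, 13 and 4 below it, where all genes gave at most 32.3% above and 30.4%, 32.5% and 31.3% below. The 66 genes together took 0.729%, 0.534% and 0.357% of all counts in 21 mo, against 0.588% to 0.689% in 18 mo and 0.738% to 0.796% in 21 mo/O304.

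Among the UDP-glycosyltransferases, Ugt2b38, one of the Ugt2b enzymes that glucuronidate steroids and drugs, differed most in both comparisons. It was measured at 408, 813 and 564 CPM in 18 mo, 365, 249 and 87.7 CPM in 21 mo and 652, 1009 and 1124 CPM in 21 mo/O304. The 21 mo mice were below all others. On the log2 scale the difference was -1.35 ± 0.49 (SE) in the first comparison, with an adjusted p of 0.131 in edgeR's test, and 1.99 ± 0.50 in the second, with an adjusted p of 0.175. When 21 mo replicate 1 was omitted, the values were -1.80 ± 0.49 (adjusted p = 0.0297, edgeR) and 2.45 ± 0.50 (adjusted p = 0.015, edgeR). Its neighbour Ugt2b37 had another pattern. The levels of Ugt2b37 were 55.9, 90.4 and 96.6 CPM in 18 mo, 96.7, 95.1 and 38.6 CPM in 21 mo and 138, 179 and 231 CPM in 21 mo/O304, so the untreated groups overlapped and each O304 mouse lay above both of them. edgeR gave a log2 fold change of -0.08 ± 0.36 in the first comparison and 1.25 ± 0.37 in the second, with adjusted p of 0.908 and 0.175 in edgeR's test.

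The ratio of these neighbours is given as a description, since the pair was chosen after its values were seen. The ratio of Ugt2b38 to Ugt2b37 in FPKM was 7.31, 9.01 and 5.85 in 18 mo, 3.78, 2.62 and 2.28 in 21 mo and 4.73, 5.65 and 4.87 in 21 mo/O304. The 3 groups did not overlap. Ratios were computed for 6 pairs of related genes, and in the other 4 than this one and Gsta2 to Gsta3 at least 1 pair of groups overlapped. Ugt2b38 lies on chromosome 5, 87409942 to 87424203 and Ugt2b37 on chromosome 5, 87240493 to 87254804, both on the minus strand.

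The rest of the Ugt2 genes were at lower levels. Ugt2b5 was at 5.20, 8.75 and 5.83 CPM in 18 mo, 3.55, 5.51 and 3.11 CPM in 21 mo and 6.05, 7.87 and 10.2 CPM in 21 mo/O304, with a log2 fold change of 0.98 ± 0.32 for 21 mo/O304 against 21 mo (adjusted p = 0.182, edgeR). Ugt2a3 averaged 0.885 FPKM and had the log2 fold changes -1.11 and 1.59 in the 2 comparisons. Ugt2b34 was the exception in direction, at 0.64 and -0.52, and its libraries overlapped in both.

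The Ugt3 enzymes, which use sugars other than glucuronic acid, separated the 21 mo mice from each other. Ugt3a2, the gene with the highest FPKM among the 66, was measured at 1259, 1513 and 1175 CPM in 18 mo, 1478, 531 and 91.2 CPM in 21 mo and 1629, 1577 and 1768 CPM in 21 mo/O304. The first 21 mo mouse lay within the 18 mo range, and the third was far below every other library. Its log2 fold change was -0.91 ± 0.73 for 21 mo against 18 mo (adjusted p = 0.442, edgeR) and 1.24 ± 0.73 for 21 mo/O304 against 21 mo (adjusted p = 0.339, edgeR). In the absence of 21 mo replicate 1, these became -2.06 ± 0.61 (adjusted p = 0.0405, edgeR) and 2.40 ± 0.62 (adjusted p = 0.0286, edgeR). Without 21 mo replicate 3, Ugt3a2 passed in neither comparison. Ugt3a1, its neighbour on chromosome 15, ran in the same order at 280.3, 42.4 and 5.63 CPM in 21 mo, against 172 to 266 CPM in 18 mo and 223 to 288 CPM in 21 mo/O304. Ugt8a, which makes galactosylceramide, was at 80.9, 117 and 113 CPM in 18 mo, 172, 127 and 21.9 CPM in 21 mo and 107, 127 and 122 CPM in 21 mo/O304. The first 21 mo mouse had the highest and the third the lowest level of Ugt8a in the series, and the log2 fold changes were 0.04 ± 0.56 and 0.16 ± 0.56. Over the 8 tested UDP-glycosyltransferases, the log2 fold change was below 0 for 6 in the first comparison, with a median of -0.81, and above 0 for 7 in the second, with a median of 1.22.

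**Figure D3:**
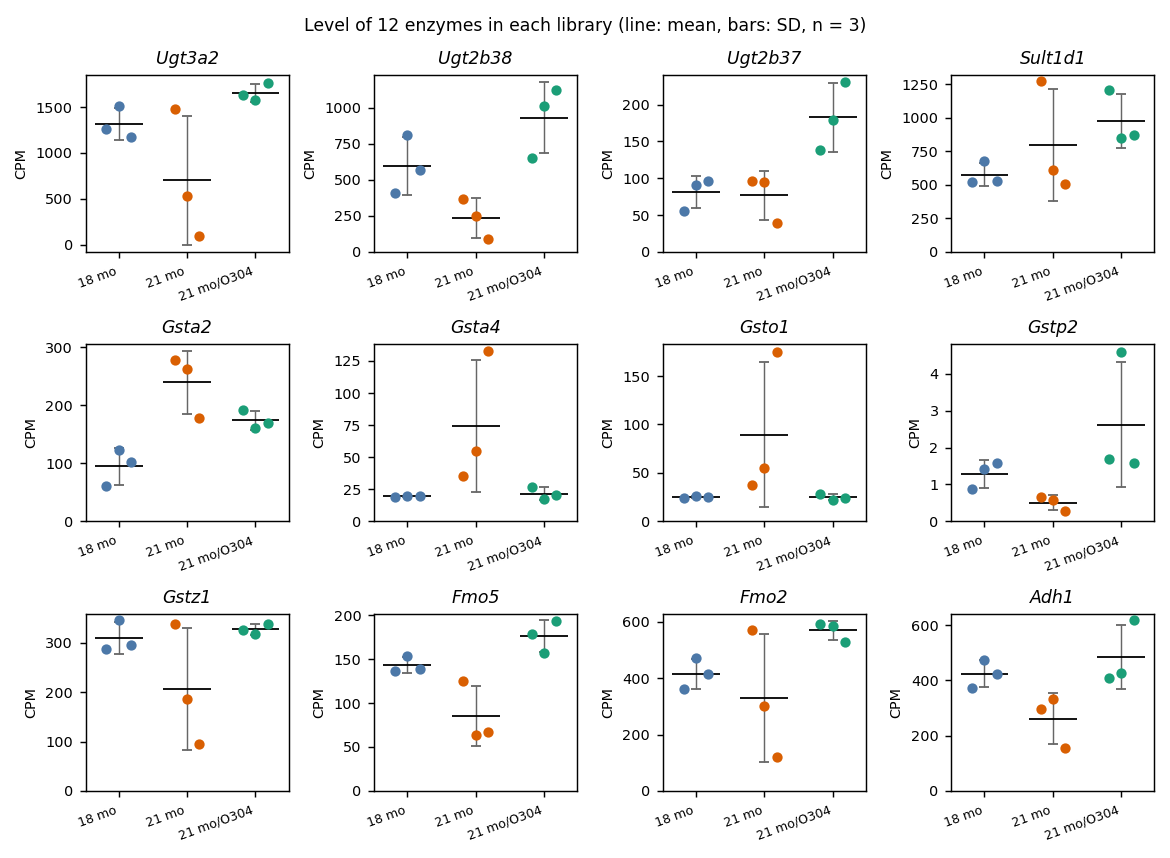
CPM of 12 genes in each library (points, with replicates 1 to 3 from left to right), with the group mean (line) and SD (bars, n = 3) on linear axes of their own. Ugt2b38 and Gstp2 were lowest in the 21 mo mice without overlap, and Gsta2, Gsta4 and Gsto1 were higher in each 21 mo mouse than in any 18 mo mouse.

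All 5 tested monooxygenases had a log2 fold change below 0 in the first comparison and above 0 in the second, with medians of -0.62 and 0.84, and all 3 alcohol dehydrogenases did the same, with medians of -0.51 and 0.89. None passed the test, and that of Fmo2 in the first comparison was 0.055 without 21 mo replicate 3. The monooxygenase sum of the first 21 mo mouse was close to that of the highest 18 mo mouse, and the sums of the 21 mo mice followed their proximal tubule markers, whose part was not tested. Fmo5, which inserts oxygen next to carbonyl groups, differed most clearly. It was at 136, 154 and 139 CPM in 18 mo, 125, 64.1 and 67.5 CPM in 21 mo and 179, 157 and 193 CPM in 21 mo/O304, and the 3 groups did not overlap. The log2 fold change was -0.74 ± 0.25 in the first comparison (adjusted p = 0.111, edgeR) and 1.04 ± 0.25 in the second (adjusted p = 0.175, edgeR). Without 21 mo replicate 1, they were -1.10 ± 0.14 (adjusted p = 0.0036, edgeR) and 1.41 ± 0.14 (adjusted p = 0.0027, edgeR). In the third 21 mo mouse, Fmo5 was about level with the second, whereas Fmo1 was far lower there than in the second, with 474, 370.0 and 86.2 CPM in 21 mo replicates 1 to 3.

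Fmo2, the monooxygenase with the highest FPKM here, was at 361, 471 and 415 CPM in 18 mo, 572, 301 and 119.9 CPM in 21 mo and 593, 587 and 530.0 CPM in 21 mo/O304. The first 21 mo mouse was within the range of the treated mice. The log2 fold changes of Fmo2 were -0.33 ± 0.45 (adjusted p = 0.661, edgeR) and 0.79 ± 0.45 (adjusted p = 0.328, edgeR), and without 21 mo replicate 1 the second was 1.43 ± 0.35 (adjusted p = 0.0242, edgeR). Fmo1 and Fmo4 had log2 fold changes of -0.62 and -0.46 in the first comparison and 0.84 and 0.57 in the second.

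Adh1 was at 374, 474 and 425 CPM in 18 mo, 298, 332 and 157 CPM in 21 mo and 408, 426 and 619 CPM in 21 mo/O304. The 21 mo mice were below all others, with a log2 fold change of -0.70 ± 0.29 (adjusted p = 0.176, edgeR) in the first comparison and 0.89 ± 0.29 (adjusted p = 0.182, edgeR) in the second. Adh5, which clears formaldehyde and S-nitrosoglutathione in most cells, differed less, at -0.51 and 0.48. With 21 mo replicate 1 left out, Adh5 had -0.74 ± 0.17 (adjusted p = 0.0184, edgeR) and 0.72 ± 0.17 (adjusted p = 0.0225, edgeR). Adh7, a retinol dehydrogenase known from the stomach, averaged 0.765 FPKM and had log2 fold changes of -0.34 and 0.91.

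Glutathione S-transferases held both directions. Of the 20 tested, the log2 fold change was above 0 for 9 and below 0 for 11 in the first comparison, and above 0 for 11 and below 0 for 9 in the second. Of the 9 above 0 in the first comparison, 3 were of the alpha family, known for detoxifying lipid peroxidation products, and 4 of the mu family. Gsta2 was at 60.3, 123 and 102 CPM in 18 mo, 278, 263 and 178 CPM in 21 mo and 192, 161 and 169.7 CPM in 21 mo/O304. Each 21 mo and 21 mo/O304 mouse was above the 18 mo range, and the third 21 mo mouse had the lowest Gsta2 level of its group. It also had the lowest sum of proximal tubule markers, whose part was not tested. The log2 fold change of Gsta2 was 1.33 ± 0.27 for 21 mo against 18 mo (adjusted p = 0.0626, edgeR) and -0.46 ± 0.27 for 21 mo/O304 against 21 mo (adjusted p = 0.334, edgeR). Its share of the summed glutathione S-transferase FPKM was 8.82 ± 2.84% in 18 mo, 17.6 ± 2.69% in 21 mo and 13.5 ± 0.671% in 21 mo/O304 (SD, n = 3). DESeq2 gave 1.32 ± 0.30 (adjusted p = 0.000649) for the first comparison.

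Gsta4, which conjugates the lipid aldehyde 4-hydroxynonenal, was at 19.4, 19.7 and 20.1 CPM in 18 mo, 35.7, 54.8 and 132 CPM in 21 mo and 26.9, 17.2 and 20.8 CPM in 21 mo/O304. The 18 mo values were close to each other, and the third 21 mo mouse was highest. On the log2 scale the difference was 1.91 ± 0.42 in the first comparison (adjusted p = 0.0665, edgeR) and -1.78 ± 0.42 in the second (adjusted p = 0.175, edgeR). Gsta1 was at low levels, with 0.372, 0.431 and 0.396 CPM in 18 mo, 1.74, 1.88 and 10.9 CPM in 21 mo and 1.63, 0.536 and 0.891 CPM in 21 mo/O304. Its log2 fold change was 3.58 ± 0.82 (adjusted p = 0.0697, edgeR) and -2.25 ± 0.75 (adjusted p = 0.184, edgeR), and its similarity to Gsta2 leaves its counts uncertain. When 21 mo replicate 1 was omitted, Gsta4 had 2.26 ± 0.33 (adjusted p = 0.005, edgeR) and -2.12 ± 0.33 (adjusted p = 0.00749, edgeR).

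The remaining alpha enzyme, Gsta3, had another pattern than its relatives, at -0.13 and 0.47 in the 2 comparisons, and at 0.15 ± 0.21 in the first without 21 mo replicate 3. It lies on chromosome 1, away from the other alpha genes on chromosome 9. The FPKM ratio of Gsta2 to Gsta3, another pair chosen after their values were seen, was 2.00, 3.37 and 3.42 in 18 mo, 6.20, 9.66 and 11.0 in 21 mo and 4.39, 4.62 and 3.90 in 21 mo/O304. Here too the 3 groups did not overlap. A ratio of this kind shows unequal change and not which of the genes differed.

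Gsto1, an omega enzyme that reduces dehydroascorbate and protein thiol adducts, was at 23.8, 26.1 and 24.8 CPM in 18 mo, 37.7, 55.0 and 175 CPM in 21 mo and 28.1, 22.2 and 24.3 CPM in 21 mo/O304. The treated mice were close to the 18 mo mice, and each 21 mo mouse was above both. edgeR gave a log2 fold change of 1.84 ± 0.49 in the first comparison (adjusted p = 0.081, edgeR) and -1.84 ± 0.49 in the second (adjusted p = 0.175, edgeR). In the absence of 21 mo replicate 1, they were 2.22 ± 0.38 (adjusted p = 0.00763, edgeR) and -2.22 ± 0.38 (adjusted p = 0.00968, edgeR). The order of Gsta4, Gsta1 and Gsto1 among the 21 mo mice was that of the injured-tubule, macrophage and fibroblast markers. It was the reverse of that of the proximal tubule markers, and the part of all these markers was not tested. Gsto2, the adjacent gene, was at 2.04, 0.863 and 0.453 CPM in 18 mo, 0.736, 0.511 and 0.183 CPM in 21 mo and 0.582, 0.894 and 0.127 CPM in 21 mo/O304 and averaged 0.443 FPKM, and both overlap Cfap43 on the other strand in the table.

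The mu family was led by Gstm1, at 374, 267 and 265 CPM in 18 mo, 596, 437 and 401 CPM in 21 mo and 623, 354 and 357 CPM in 21 mo/O304. The first mouse of each group had the highest value, and the 21 mo mice did not overlap with 18 mo. Gstm1 had a log2 fold change of 0.66 ± 0.28 in the first comparison (adjusted p = 0.178, edgeR) and -0.11 ± 0.28 in the second (adjusted p = 0.839, edgeR). Gstm6 was higher at 21 mo without overlap (log2 fold change 1.21) and Gstm4 lower without overlap (-0.37), while Gstm2, Gstm5 and Gstm7 overlapped in both comparisons. Gstm4 was at 15.7, 13.2 and 13.9 CPM in 18 mo, 11.0, 12.6 and 9.44 CPM in 21 mo and 12.4, 11.9 and 14.4 CPM in 21 mo/O304. Gstm2 was at 42.5, 26.5 and 28.2 CPM, 24.1, 35.1 and 60.4 CPM and 30.1, 20.7 and 25.4 CPM in the same order of groups. Gstm6 was called in the first comparison when 21 mo replicate 1 was left out (1.40 ± 0.35, adjusted p = 0.0234, edgeR) and Gstm2 in the second (-0.92 ± 0.28, adjusted p = 0.0483, edgeR).

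Of the pi enzymes, the abundant Gstp1 was at 125, 167 and 123 CPM in 18 mo, 162, 115 and 70.2 CPM in 21 mo and 131, 122 and 178 CPM in 21 mo/O304, with overlap throughout and log2 fold changes of -0.26 ± 0.29 and 0.31 ± 0.29. Its scarce neighbours differed more. Gstp2 was at 0.867, 1.42 and 1.58 CPM in 18 mo, 0.669, 0.568 and 0.275 CPM in 21 mo and 1.69, 4.59 and 1.59 CPM in 21 mo/O304, so that the 3 groups did not overlap. Gstp2 had a log2 fold change of -1.37 ± 0.56 (adjusted p = 0.17, edgeR) and 2.39 ± 0.56 (adjusted p = 0.175, edgeR). The highest Gstp2 value was that of 21 mo/O304 replicate 2, the treated library with the lowest sum of adipocyte markers. The part of those markers in its level was not tested. Gstp3 went the other way, at 0.401, 2.16 and 3.07 CPM in 21 mo against at most 0.509 CPM in 18 mo and at most 0.715 CPM in 21 mo/O304, although the first 21 mo mouse was within the 18 mo range. With reads that fit Gstp1 or the processed pseudogene Gstp-ps, which was counted in every library, these low values are uncertain.

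The theta, kappa and zeta enzymes were lower or level at 21 mo. Gstt1 hardly varied, at 156, 135 and 153 CPM in 18 mo, 143, 146 and 125 CPM in 21 mo and 144, 126 and 151 CPM in 21 mo/O304, with log2 fold changes of -0.10 ± 0.13 and 0.02 ± 0.13. Gstt2 was at 176, 201 and 162 CPM, 162, 94.2 and 86.7 CPM and 169, 145 and 204 CPM in the same order of groups, with -0.65 ± 0.25 (adjusted p = 0.144, edgeR) and 0.59 ± 0.25 (adjusted p = 0.226, edgeR). Within 1 tandem group on chromosome 10, then, Gstt1 and Gstt2 differed in replicates 2 and 3 of 21 mo. Gstt3 was at 40.4, 44.4 and 36.9 CPM, 36.8, 35.1 and 28.4 CPM and 39.7, 30.6 and 41.0 CPM, with log2 fold changes of -0.28 and 0.15.

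Gstz1, which isomerises maleylacetoacetate in tyrosine breakdown, was at 287, 346 and 296 CPM in 18 mo, 338, 187 and 94.2 CPM in 21 mo and 326, 317 and 339 CPM in 21 mo/O304. Gstk1, the enzyme of mitochondria and peroxisomes, was at 55.7, 58.8 and 65.9 CPM, 78.1, 38.5 and 26.0 CPM and 74.3, 65.3 and 65.3 CPM. In the first 21 mo mouse Gstz1 was within the 18 mo range and Gstk1 above it, and in the others both were below it. The log2 fold changes were -0.59 ± 0.37 and 0.67 ± 0.37 for Gstz1 and -0.34 ± 0.33 and 0.53 ± 0.33 for Gstk1, with adjusted p between 0.321 and 0.364 in edgeR's test for the second comparison. With 21 mo replicate 1 left out, the first comparison gave -1.12 ± 0.27 for Gstz1 (adjusted p = 0.0197, edgeR) and -0.88 ± 0.18 for Gstk1 (adjusted p = 0.012, edgeR). For Gstt2 it gave -0.97 ± 0.17 (adjusted p = 0.00845, edgeR).

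**Figure D4:**
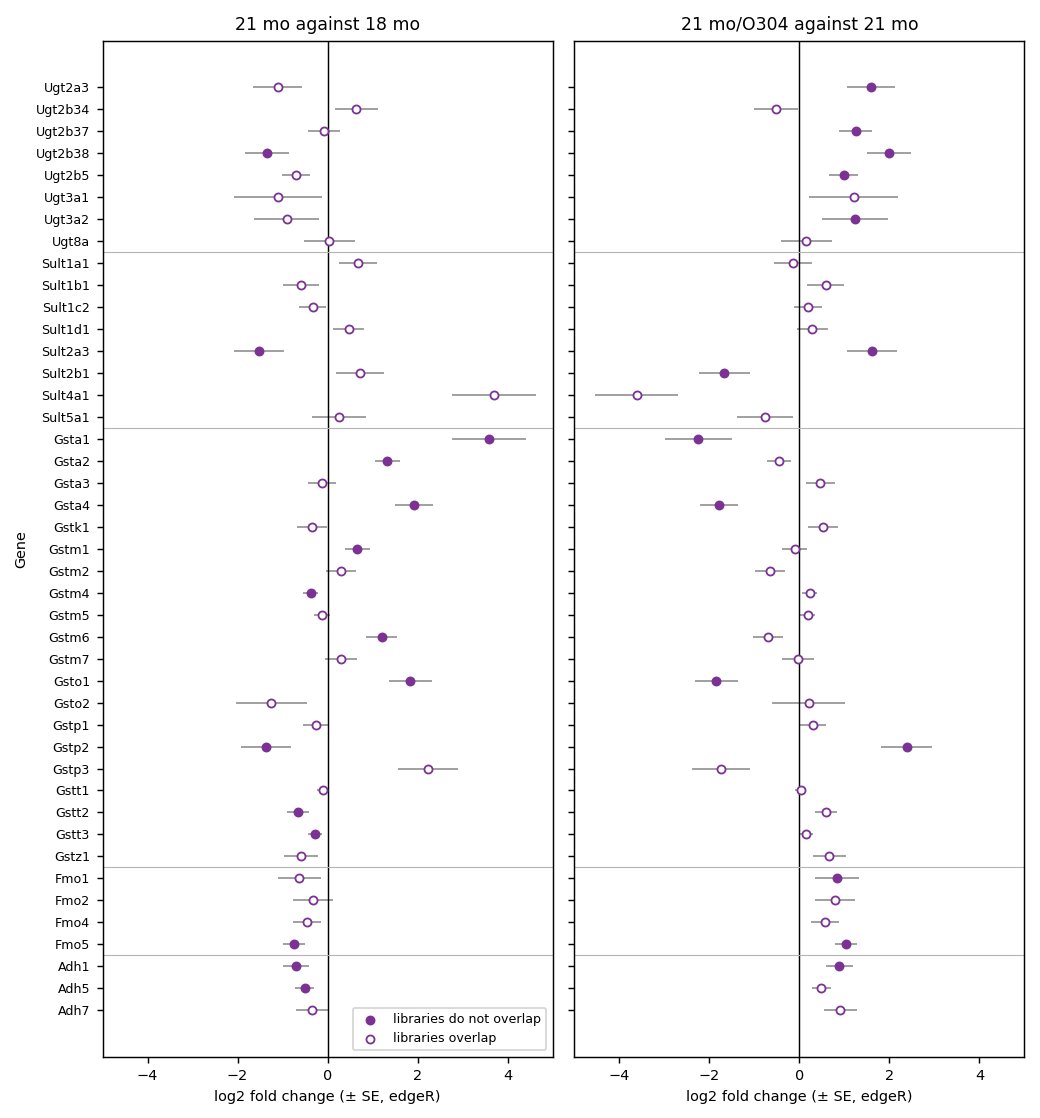
Log2 fold change with its standard error (x axis, edgeR) for 43 of the 44 tested genes (y axis), for 21 mo against 18 mo on the left and 21 mo/O304 against 21 mo on the right, with filled points where the libraries of the groups did not overlap. Monooxygenases and alcohol dehydrogenases lie left of 0 in the first panel and right of 0 in the second, and Sult4a1, Gsta1 and Gstp3 lie farthest right in the first.

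Sulfotransferases had no common direction, with 5 of 8 tested genes above 0 in the first comparison and 4 of 8 in the second. Sult1d1 was at 523, 678 and 528 CPM in 18 mo, 1278, 611 and 505 CPM in 21 mo and 1204, 847 and 871 CPM in 21 mo/O304. The first mouse of 21 mo and of 21 mo/O304 had the highest values, and each treated mouse was above the 18 mo range. Sult1d1 had a log2 fold change of 0.47 ± 0.35 in the first comparison (adjusted p = 0.414, edgeR) and 0.29 ± 0.35 in the second (adjusted p = 0.634, edgeR). When 21 mo replicate 1 was omitted, the first turned to -0.031 (adjusted p = 0.934, edgeR) and the second was 0.80 ± 0.23 (adjusted p = 0.0418, edgeR). Sult1c2, the next in level, had log2 fold changes of -0.33 and 0.19. Sult1a1, a phenol sulfotransferase, had 0.68 and -0.14. The signs turned when 21 mo replicate 3 was left out, with -0.11 ± 0.18 for Sult1c2 in the second comparison and -0.03 ± 0.26 and 0.56 ± 0.26 for Sult1a1.

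Sult4a1, an enzyme known from brain whose substrate is not settled, was at 0.557, 0.370 and 0.396 CPM in 18 mo, 0.535, 7.45 and 9.39 CPM in 21 mo and 0.174, 0.477 and 0.764 CPM in 21 mo/O304. Replicates 2 and 3 of 21 mo, those with lower proximal tubule and higher injured-tubule marker sums, were above all others. The first 21 mo replicate was level with 18 mo. The log2 fold change of Sult4a1 was 3.70 ± 0.93 in the first comparison (adjusted p = 0.0772, edgeR) and -3.61 ± 0.92 in the second (adjusted p = 0.175, edgeR). In the absence of 21 mo replicate 1, these were 4.25 ± 0.49 (adjusted p = 0.00312, edgeR) and -4.16 ± 0.49 (adjusted p = 0.00452, edgeR), and without 21 mo replicate 3 they were 3.14 ± 0.93 (adjusted p = 0.107, edgeR) and -3.07 ± 0.92 (adjusted p = 0.265, edgeR).

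The hydroxysteroid sulfotransferases were scarce. Sult2a3 was at 0.805, 1.60 and 1.64 CPM in 18 mo, 0.669, 0.625 and 0.137 CPM in 21 mo and 1.28, 1.49 and 1.53 CPM in 21 mo/O304, with the 21 mo mice below the rest. Its log2 fold change was -1.52 ± 0.56 in the first comparison (adjusted p = 0.135, edgeR) and 1.61 ± 0.56 in the second (adjusted p = 0.189, edgeR). Sult2b1, which sulfates cholesterol, was at 2.11, 0.801 and 0.735 CPM, 0.870, 2.22 and 2.89 CPM and 0.582, 0.656 and 0.637 CPM in the 3 groups. The treated mice were the lowest, with a log2 fold change of -1.67 ± 0.57 against 21 mo (adjusted p = 0.186, edgeR). Without 21 mo replicate 1, that of Sult2b1 was -2.03 ± 0.51 (adjusted p = 0.0268, edgeR). Sult2b1 overlaps Lmtk3 in the table.

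The third comparison, 21 mo/O304 against 18 mo, sets the treated mice beside the younger ones. More of the enzymes were above than below their 18 mo level, among them Ugt2b37, Gsta2, Sult1d1 and Fmo5. edgeR called 0 of 44 genes and 0 of all 15902 (0%) at an adjusted p under 0.05. At an unadjusted p under 0.05 there were 2 genes higher (4.33% of all genes), namely Gsta2 and Ugt2b37, and 0 lower (5.33%). The log2 fold change of Gsta2 was 0.87 ± 0.27 (adjusted p = 0.364, edgeR), that of Ugt2b37 1.17 ± 0.37 (adjusted p = 0.366, edgeR), that of Sult1d1 0.76 ± 0.35 and that of Gstm1 0.56 ± 0.28. Gstp2 had 1.02 ± 0.52. The libraries did not overlap for 10 genes that were higher (13.2% of all genes), namely Fmo1, Fmo2, Fmo5, Gsta1, Gsta2, Gstp2, Sult1a1, Sult1d1, Ugt2b37 and Ugt3a2, and for 2 that were lower (13.3%), Sult1c2 and Sult2b1. All 8 UDP-glycosyltransferases had a log2 fold change above 0, with a median of 0.31. Of the lower ones with the smallest p, Sult2b1 had -0.95, Gsto2 -1.04, Gstm2 -0.35, Gstm4 -0.14 and Gstt3 -0.13. Over the 44 genes, 31 were above 0 (50.4% of all genes) and 13 below 0 (49.6%), with a median of 0.16. Voom with sample quality weights, the alternative that called most genes, called Ugt2b37 higher (1.04% of all genes) and 0 of the enzymes lower (1.57%).

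Genes that supply or surround these enzymes were followed by lists, which are given as counts. In edgeR's test 1 of them passed an adjusted p of 0.05. This was Aldh1a1, the retinal-oxidising aldehyde dehydrogenase that acts after Adh1, which rose from 14.9, 14.2 and 14.8 CPM in 18 mo to 69.6, 64.7 and 48.2 CPM in 21 mo, a log2 fold change of 2.06 ± 0.17 (adjusted p = 0.0105, edgeR). Its 21 mo mice were above all others. The log2 fold change lay between 1.72 and 2.18 in all 19 alternatives, while the call held in 13 of them. It was lost without 18 mo replicate 1, 2 or 3 (adjusted p = 0.152, 0.202 and 0.0852, edgeR) and without 21 mo replicate 2 (adjusted p = 0.0502, edgeR). With O304 it was at 29.5, 21.8 and 26.3 CPM, between the other groups, with a log2 fold change of -1.23 ± 0.16 against 21 mo (adjusted p = 0.15, edgeR). Of the 21 aldehyde and other carbonyl enzymes, 7 were above and 14 below 0 in the first comparison, and 14 above and 7 below 0 in the second. Ephx1, the microsomal epoxide hydrolase, had -1.40 ± 0.26 in the second comparison (adjusted p = 0.175, edgeR).

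Genes that supply the conjugated groups gave no call. Of the 12 genes of glutathione synthesis and breakdown, 11 were below 0 in the first comparison and 11 above 0 in the second. The exception in the first was Chac1, which degrades glutathione, at 1.20 ± 0.35 (adjusted p = 0.0922, edgeR). Nat8, which finishes mercapturic acids in the proximal tubule, was at 236, 254 and 260.2 CPM in 18 mo, 197, 94.2 and 50.0 CPM in 21 mo and 208, 236 and 287 CPM in 21 mo/O304. Of the 7 tested genes of PAPS supply and sulfate removal, 4 were below 0 in the first comparison and 5 above 0 in the second, with Papss1, a PAPS synthase, at -0.55 and 0.55. The 5 genes of UDP-glucuronic acid supply were split 3 above to 2 below 0 and then all above 0, with Slc35d1, which carries the UDP sugar into the endoplasmic reticulum, at -0.58 and 0.63.

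Of 15 tested other conjugating enzymes, 5 were above and 10 below 0 in the first comparison. Mgst1, the microsomal glutathione S-transferase, was at 50.7, 69.0 and 55.6 CPM in 18 mo, 138, 169 and 209 CPM in 21 mo and 108, 84.3 and 85.5 CPM in 21 mo/O304, with 1.56 ± 0.20 (adjusted p = 0.0593, edgeR) and -0.89 ± 0.19. Its level, like that of Gsta4 and Gsto1, was highest in 21 mo replicate 3. Of the 10 exporters of conjugates, 5 were above and 5 below 0 in each comparison. Abcc3 had 2.97 ± 0.48 (adjusted p = 0.0626, edgeR) and -2.64 ± 0.47, and Abcc4 1.76 ± 0.36 (adjusted p = 0.0626, edgeR) and -0.91 ± 0.36.

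Of 13 tested regulators, 5 were above and 8 below 0 in the first comparison, and 8 above and 5 below 0 in the second. Nfe2l2, which encodes the oxidative stress factor Nrf2, was at 91.8, 89.2 and 86.6 CPM in 18 mo, 115, 164 and 167 CPM in 21 mo and 96.5, 101 and 109 CPM in 21 mo/O304, with 0.74 ± 0.16 (adjusted p = 0.0626, edgeR). Its inhibitor Keap1 was at 50.7, 52.0 and 50.1 CPM, 39.2, 33.4 and 35.6 CPM and 41.6, 41.8 and 44.9 CPM, with -0.50 ± 0.10 (adjusted p = 0.0626, edgeR).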

How the data were processed

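Kidney RNA was sequenced in 9 libraries, each taken as 1 mouse. The authors used HISAT2 2.0.5 for alignment and featureCounts 1.5.0-p3 for gene counts on GRCm38/mm10, as the submitters' processing notes and the paper give it, and deposited whole-number counts without normalization. The FPKM values deposited beside them were computed by the authors per gene length and library. Strandedness and the treatment of reads with several matches are not given in the sources used here. The table also holds the authors' own DESeq2 1.20.0 comparisons (group means, log2 ratios, p and adjusted p), which were not used. Every sample column was used (0 left over).

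Of 54532 genes, 15902 passed filterByExpr (minimum count 10, minimum total 15). Counts were normalized by TMM and tested with edgeR 4.0.16 (R 4.3.3) in a quasi-likelihood fit of 3 group means over all 9 libraries (6 residual degrees of freedom), two-sided, with Benjamini-Hochberg adjustment over all tested genes and a threshold of 0.05. The errors of log2 fold changes are standard errors. For edgeR they were derived from the test, as the absolute log2 fold change divided by the square root of its F statistic. CPM are TMM-normalized, and log2 CPM used a prior count of 2. CPM were used within a gene and FPKM between genes. A gene was taken as at the floor with 3 counts or fewer in every library of a group, which held for none of the 44 tested enzymes. Sult6b1, called only when 21 mo replicate 1 was left out, was at the floor in 18 mo and 21 mo/O304. The p-values measure the spread between these libraries.

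Every gene of the rule was accounted for in the counts, and the values of 1 enzyme and 1 regulator are not reported here. Values in all libraries were given for the gene with the highest FPKM in each family and for the 5 higher and 5 lower genes with the smallest p in each comparison, and of the 7 surrounding lists up to 3 genes with the smallest p could be named. Other genes of the rule and the ratios were chosen after their values were seen. The genes, the lists and the markers of cell types were chosen with earlier results of these data known. Beside the marker lists named above, those of thick limb, distal tubule, collecting duct, podocyte, endothelium, T cell and B or plasma cell were summed, and of these the thick limb sum ran from 1977 to 7289 CPM, the distal sum from 535 to 1463, the collecting duct sum from 239 to 609, the podocyte sum from 199 to 592, the endothelial sum from 179 to 518, the T cell sum from 7.46 to 32.2 and the B and plasma cell sum from 89.2 to 686 CPM over the 9 libraries. Sts, of the sulfate list, was not found under that name.

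Alternatives were DESeq2 1.42.0, limma 3.58.1 (voom with sample quality weights, or limma-trend on log2(FPKM + 1), kept to a mean of 0.5 FPKM or more), RLE and upper-quartile factors, every gene with a count, a mean of at least 1 CPM, the replicate number as a block, a fit to only the 6 libraries compared and leaving out each library. Voom with 1 weight per group was added after seeing the data. The tests were tried on simulated data.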

Additional observations from a re-analysis of the deposited data

How the results depend on the processing

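Genes of the rule past an adjusted p of 0.05 numbered 0 in each comparison and stayed at 0 with RLE or upper-quartile factors, the mean CPM filter, limma-trend on FPKM, only the 6 libraries compared and voom with 1 weight per group. For 21 mo against 18 mo there were 8 with DESeq2, 5 with every gene with a count, 24 with voom and sample weights (which gave 21 mo replicate 2 a weight of 9.11 and replicates 1 and 3 weights of 0.223 and 0.132) and 0 to 16 without 1 library. For 21 mo/O304 against 21 mo there were 7 with DESeq2, 27 with voom and sample weights and 0 to 22 without 1 library. For 21 mo/O304 against 18 mo, voom with sample weights gave 1, and leaving out libraries gave 0. Over all genes, the 3 called for 21 mo against 18 mo became 0 with the 6 libraries compared, 2023 with DESeq2, 576 with every gene with a count, 8409 with voom and sample weights and 0 to 4186 without 1 library. For 21 mo/O304 against 21 mo, 0 became 896 with DESeq2, 17 with every gene with a count, 6528 with voom and sample weights and 0 to 3808 without 1 library. For 21 mo/O304 against 18 mo, 0 became 22 with the 6 libraries, 118 with DESeq2, 275 with voom and group weights, 415 with voom and sample weights and 0 to 12 without 1 library. The medians over the enzymes kept their sign in all 19 alternatives, between -0.46 and -0.10, 0.16 and 0.67, and 0.12 and 0.21. The cause of these differences was not tested, and where a library is left out, an arm of 2 mice shares the spread of the others.

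With the replicate number as a block, 0 enzymes were called in each comparison and 0 genes in all. Same-numbered libraries did not deviate together in every pair (correlation of deviations from -0.13 to 0.17), so the numbers were not taken as pairs.

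In direction, 15 of 853 repeats for the genes named reversed for 21 mo against 18 mo, 15 of 797 for 21 mo/O304 against 21 mo and 0 of 187 for the third comparison. For 21 mo against 18 mo, leaving out libraries gave Fmo2 between -0.96 and 0.055 (above 0 without 21 mo replicate 3), Sult1d1 between -0.031 and 0.70 (below 0 without 21 mo replicate 1), Ugt2b37 between -0.29 and 0.23 (above 0 without 18 mo replicate 2 or 3 or 21 mo replicate 3) and Ugt8a between -0.46 and 0.51 (below 0 without 18 mo replicate 1 or 21 mo replicate 1 or 2). Ugt2b37 was 0.16 with voom and sample weights, and Ugt8a was -0.35 with voom and group weights, -0.33 on FPKM and -0.15 with the replicate block. For 21 mo/O304 against 21 mo it gave Gstm1 between -0.45 and 0.078 (above 0 without 21 mo replicate 1 or 21 mo/O304 replicate 2 or 3), Gstt1 between -0.038 and 0.085 (below 0 without 21 mo replicate 3 or 21 mo/O304 replicate 1 or 3) and Ugt8a between -0.32 and 0.67, with -0.32 without 21 mo replicate 3. Gstt1 was -0.071 and Ugt8a -0.070 with voom and sample weights. Gsta3 and Sult1a1 turned without 21 mo replicate 3 in the first comparison. Leaving out libraries gave Gsta3 between -0.55 and 0.15 and Sult1a1 between -0.028 and 0.99 there. Sult1a1 and Sult1c2 turned without that replicate in the second comparison. There, leaving out libraries gave Sult1a1 between -0.46 and 0.56 and Sult1c2 between -0.11 and 0.63. Sult1a1 was -0.29 in the first and 0.81 in the second with voom and sample weights, and in the second 0.00078 with voom and group weights, 0.046 on FPKM and 0.031 with the replicate block. For Aldh1a1 the adjusted p of the first comparison was 0.0626 with the replicate block and 0.0553 with the 6 libraries compared. Counts of a few reads, as for Gsta1, Gstp2, Sult4a1 and Sult2a3, limit the precision of those values.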

Other observations

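The pseudogenes of these families, which the rule leaves out, were mostly silent. Gstp-ps, a processed copy of the pi genes, was counted 315, 302 and 252 times in 18 mo, 256, 275 and 232 times in 21 mo and 301, 286 and 350 times in 21 mo/O304. The groups overlapped. Gstm2-ps1 was counted 51, 56 and 64 times in 18 mo, 113, 103 and 134 times in 21 mo and 138, 108 and 82 times in 21 mo/O304, so each mouse of the older groups was above the 18 mo range in raw counts. The 6 pseudogenes of the Sult1c2 and Sult2a genes were at 0 in every library.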
